A study of Mus musculus with 8 samples.

Results

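Hyaluronan is made, held and broken down by a small set of gene products, and 10 of these genes were followed in whole mouse knee joints: the synthases Has1, Has2 and Has3, the degrading genes Hyal1, Hyal2 and Cemip, and the binding genes Cd44, Tnfaip6, Lyve1 and Stab1. They were taken from a table of normalised read counts by gene name, and 10 of 10 were found among its 20681 genes. The series holds 4 control and 4 knockout messenger RNA libraries by their titles, the knocked-out gene being Loxl2, which encodes a lysyl oxidase that cross-links collagen and elastin. Per the series' design text, all 8 joints came from Acan-Cre;Loxl2 fl/fl mice, in which Cre is driven from the aggrecan gene, a gene of cartilage cells, so deletion is directed to those cells and not to the whole joint. The control samples were vehicle-treated, and the library names read Vehicle_DMM_LOXL2wt for control and KO_DMM_LOXL2ko for knockout. The floxed alleles and the Cre are therefore given for both groups, although the control names read wild type. Any agent given to the knockout mice instead of vehicle also separates the groups, and its identity, the age and sex of the mice and the time of sampling are not given in the labels used here. DMM, carried by every library name, is not spelled out there, and usually stands for surgical destabilisation of the medial meniscus. Nothing in the labels says whether each library is 1 mouse or a pool, so p-values measure the spread between these libraries.

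Hyaluronan is a long unbranched sugar chain of alternating glucuronic acid and N-acetylglucosamine, spun out through the plasma membrane by the synthases. In a joint it gives synovial fluid its viscosity, lubricates cartilage together with lubricin, and forms the backbone on which aggrecan is anchored in cartilage matrix. Long chains are cut outside the cell or at its surface, taken up through receptors, and shortened to single sugars in lysosomes.

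The promoters of the genes called between the groups are shown first, to see which sequence motifs they share. RefSeq promoter entries (build GRCm38.p6) were matched for 7 of 10 genes, and not for Has2, Has3 and Lyve1. The 250 bases before the RefSeq start were searched on both strands for AP-1 (TGANTCA), NF-kB by name, a TATA box (TATAAA), a GC box (GGGCGG) and RUNX (TGTGGT). Cemip, Cd44 and Stab1 are printed because their RNA was called higher in the libraries labelled knockout, and Tnfaip6 because it was the 1 entry with an AP-1 match. Each is written 5′ to 3′ on the strand of the gene, and capitals mark the motif matches.
Cemip, chr7:84086506-84086755, minus strand: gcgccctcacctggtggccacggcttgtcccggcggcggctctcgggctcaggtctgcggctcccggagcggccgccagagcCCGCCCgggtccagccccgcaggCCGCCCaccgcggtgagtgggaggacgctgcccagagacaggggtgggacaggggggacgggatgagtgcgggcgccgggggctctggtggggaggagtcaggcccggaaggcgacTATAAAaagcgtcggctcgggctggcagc
Cd44, chr2:102901666-102901915, minus strand: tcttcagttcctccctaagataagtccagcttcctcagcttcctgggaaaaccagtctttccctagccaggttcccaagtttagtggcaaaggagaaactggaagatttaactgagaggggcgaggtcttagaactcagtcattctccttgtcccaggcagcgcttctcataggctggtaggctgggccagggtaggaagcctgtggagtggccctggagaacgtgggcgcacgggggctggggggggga
Stab1, chr14:31168642-31168891, minus strand: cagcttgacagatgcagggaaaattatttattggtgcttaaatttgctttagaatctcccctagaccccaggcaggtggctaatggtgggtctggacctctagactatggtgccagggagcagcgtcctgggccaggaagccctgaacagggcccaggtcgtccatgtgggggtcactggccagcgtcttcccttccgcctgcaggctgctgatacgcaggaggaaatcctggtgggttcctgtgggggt
Tnfaip6, chr2:52037863-52038008, plus strand, ending before the GENCODE start: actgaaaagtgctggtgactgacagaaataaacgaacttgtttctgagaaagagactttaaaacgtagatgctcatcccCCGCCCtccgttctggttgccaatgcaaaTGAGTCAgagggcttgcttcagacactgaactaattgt

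The Cemip sequence held a TATA box 24 to 29 bases before the RefSeq start, a motif present in 12.4% of 32851 promoters of the same length. It also held 2 GC boxes, written CCGCCC on this strand, a motif of 32.7% of promoters, and its 250 bases were 75.2% G and C with 26 CpG pairs. By comparison the Cd44 sequence was 56.4% G and C with 5 CpG pairs, the Stab1 sequence 57.2% with 5, and the median of all promoters was 52.4%. Neither the Cd44 nor the Stab1 sequence held any of the motifs searched, so the called genes with an entry shared none of them. In Tnfaip6 the AP-1 match, TGAGTCA, lay 136 to 142 bases before the RefSeq start, and 6.75% of promoters held such a match. It also held 1 GC box. Among the other entries, Hyal1 held 2 overlapping GC boxes and 2 RUNX matches, a motif of 14% of promoters, Hyal2 held 1 GC box and 1 NF-kB match, a motif of 3.9%, and Has1 held no match. The Hyal2 window, chr9:107568913-107569162, lies wholly inside the gene as GENCODE places it. These letters describe the windows and say nothing of binding.

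Read totals ran from 13991000 to 17411617 per library. Loxl2, the targeted gene, went against the labels: its normalised read counts were 282, 349, 1135 and 311 in the control libraries and 893, 1468, 960 and 1518 in those labelled knockout, a log2 difference of 1.44 (SE 0.40, limma adjusted p = 0.0294; exact permutation p = 0.0857). Reads outside the deleted part, or from cells without Cre, count toward these values, and the files do not say which exons were removed. The groups are therefore called by their labels throughout. A gene was called when limma, fitted to log2(value + 1) of 14949 genes, gave a Benjamini-Hochberg adjusted p under 0.05, and 23.2% of the genes were called, with 11.6% called higher in the libraries labelled knockout. Cell type markers moved with the labels: limma called 7 of 8 fibroblast markers higher, with a summed value of 37744 to 118301 in control and 160281 to 262831 in the other libraries, and 7 of 8 macrophage markers higher, with sums of 1361 to 3016 and 4724 to 6403. The osteoclast markers had the largest median difference of the marker lists, 2.92 on the log2 scale, and limma called 5 of 5 higher and edgeR and DESeq2 4 each, with sums of 1468 to 10054 and 8246 to 29559. Of 5 osteoblast markers limma called 3 higher and edgeR and DESeq2 1 each, with a median of 1.63 and sums of 1011 to 6593 and 5394 to 11717. Of 9 skeletal muscle markers, limma called 3 (Ckm, Casq1 and Pygm) lower and edgeR and DESeq2 7 each, with sums of 1647743 to 1734208 in control and 796396 to 1145934 in the libraries labelled knockout. All 6 erythroid markers had negative differences, with a median of -1.93, and 6 had an unadjusted limma p under 0.05. All 8 neutrophil markers were negative too, with a median of -0.64. In these erythroid and neutrophil lists limma, edgeR and DESeq2 called 0. Of the 7 chondrocyte markers none was called by limma or edgeR, 1 had an unadjusted p under 0.05 and 1 was called by DESeq2, and Matn3 was at 0 in a library. Their differences were positive in 6 and negative in 1, with a median of 0.74. Comp lay at the threshold, at 0.91 (limma adjusted p = 0.0501). In bulk tissue fewer cells of a type and less RNA per cell cannot be told apart, and the part of these shifts in the values below was not tested.

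Of the 10 hyaluronan genes, 4 were called higher in the libraries labelled knockout: the synthase Has2, the hyaluronan-degrading Cemip, and the receptors Cd44 and Stab1. None was called lower by limma, edgeR or DESeq2, and none had an unadjusted p under 0.05 in that direction. The background is 11.6% of all genes called higher. The median log2 difference of the 10 genes was 0.82, against 0.00 over all genes tested, and 9 of 10 differences were positive, Has3 being the exception. The 10 genes were listed with earlier results of these data known, so the comparison with all genes is descriptive. Under total-read scaling on the genes left after removing muscle, blood and the most abundant genes, the median of all genes shifted by 0.15, and Has3 stayed below 0, at -0.09. The groups did not overlap for Has2 and Cemip, with every library labelled knockout above every control, as was so for 11.7% of all genes. For Has2 the closest pair of libraries held equal reads and was parted by scaling. These calls were not stable to the loss of a library: 0 of the 10 genes were called by limma without control replicate 2, knockout replicate 2 or knockout replicate 4, where 4, 5 and 4 had an unadjusted p under 0.05, and 1 was called without control replicate 1. Calls over all 14949 genes fell as well. In the same fits and order 974, 1147, 831 and 1554 genes were called higher, against 1732 with every library. Without a filter on low values 2 of the 10 genes were called.

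**Figure D1:**
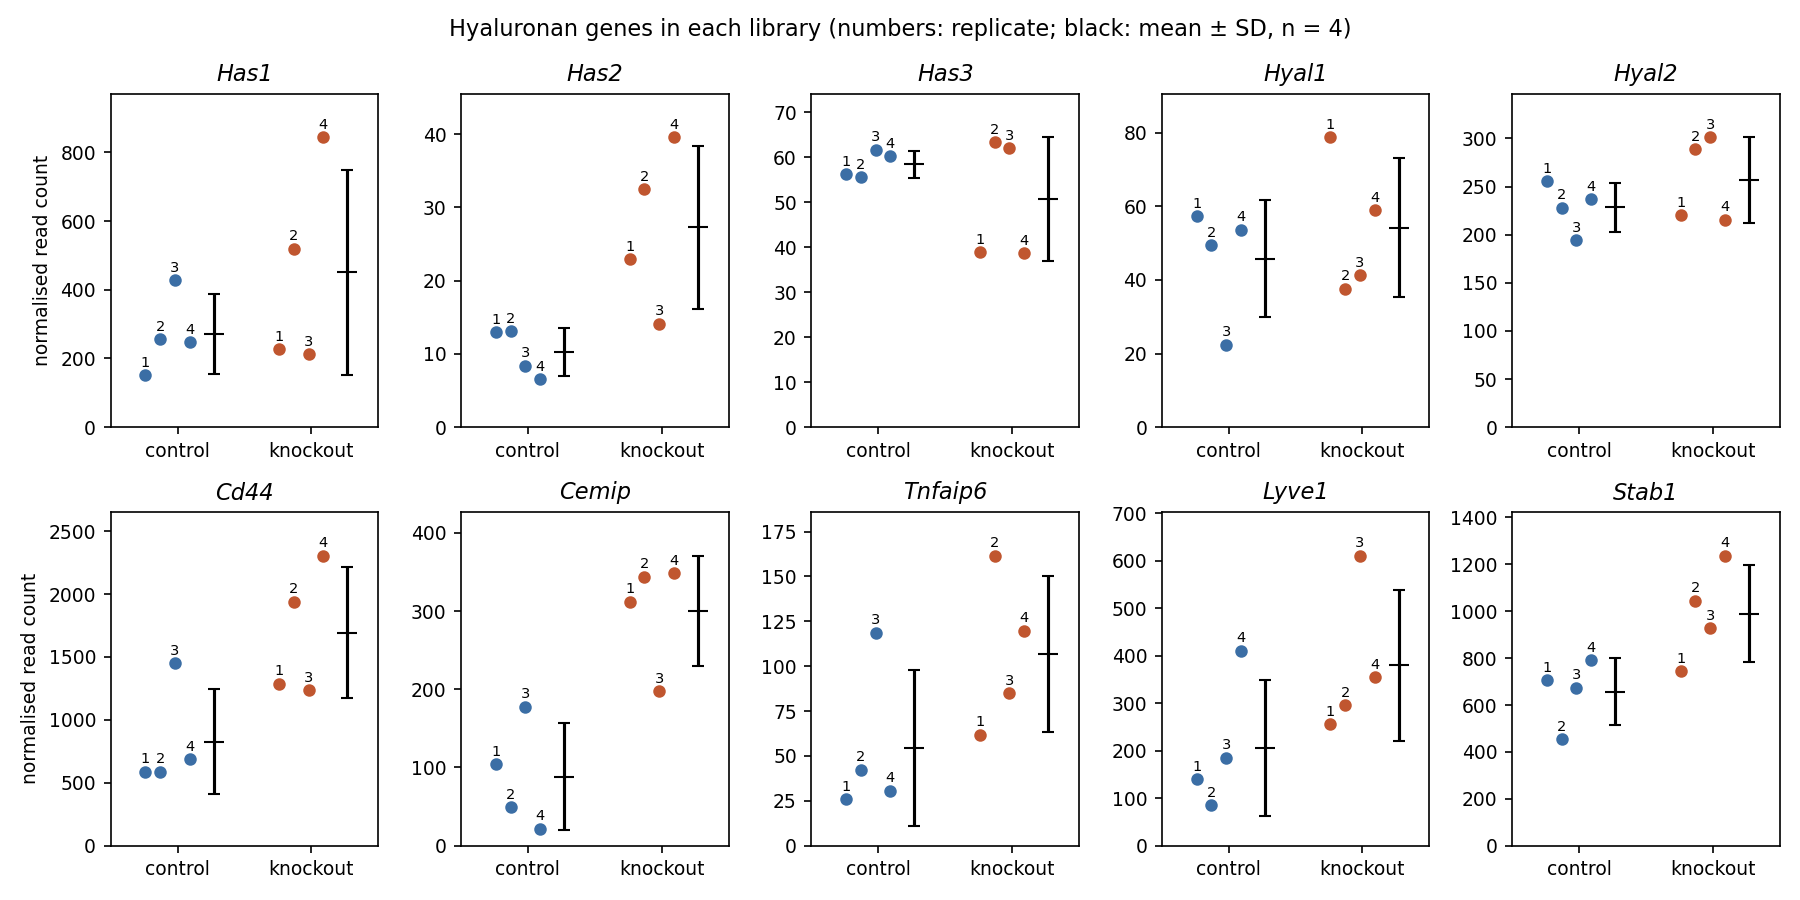
Normalised read counts (vertical axes, from 0) of the 10 hyaluronan genes in each library, by label, with the replicate number at each point and the mean ± SD of 4 libraries in black. In the Has2 and Cemip panels the groups do not overlap, and in the Cd44 and Tnfaip6 panels control replicate 3 sits among the libraries labelled knockout.

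**Figure D2:**
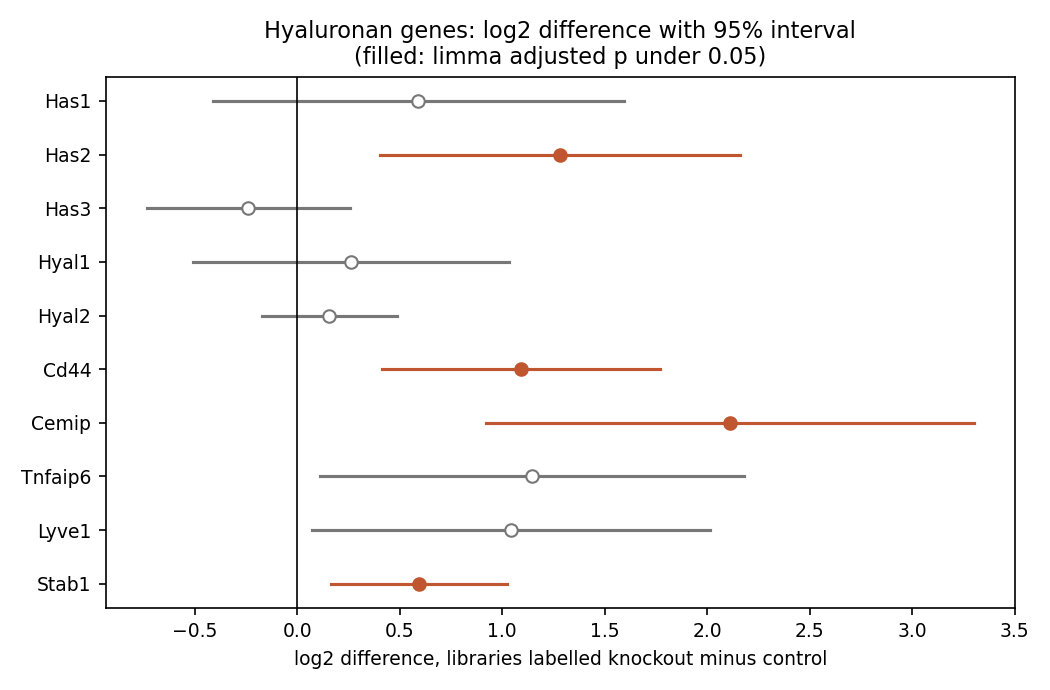
Log2 difference, libraries labelled knockout minus control, for each gene (points) with its 95% interval (lines), filled where limma's adjusted p was under 0.05. The intervals of Has1, Has3, Hyal1 and Hyal2 cross 0, and the largest difference is that of Cemip, at 2.11.

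Among the synthases, only the least abundant transcript, that of Has2, passed the test. Has2 makes very long chains and is the synthase that mouse embryos cannot do without. The gene lies on chromosome 15 (mm10, chr15:56665627-56694539, minus strand). Its normalised read counts were 13, 13.1, 8.41 and 6.57 in the control libraries and 22.9, 32.5, 14.1 and 39.6 in those labelled knockout. The lowest library labelled knockout, replicate 3, lay just above the highest control, replicate 2. Both libraries held the same number of Has2 reads, and their size factors of 0.920 and 0.991 set the order. The separation of the groups therefore rests on scaling. Has2 rose by a log2 of 1.28 (SE 0.39, 95% interval 0.40 to 2.16), a fold of 2.43 with an interval of 1.32 to 4.47 (limma adjusted p = 0.0418; exact permutation p = 0.0286, the smallest the design allows). These values rest on 6 to 45 reads per library, and limma's call was lost in 7 of 8 fits that left out a library, with adjusted p from 0.0507 to 0.121 and a call kept only without knockout replicate 3 (adjusted p = 0.0191). It was also lost without the filter (0.0540) and after quantile normalisation (0.0920). Has2os, an antisense transcript that overlaps Has2 on the other strand, had 0 to 13 reads per library and fell below the filter, and since the use of strand in counting is not given, reads of the pair cannot be told apart.

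Has1 encodes a synthase that is induced in fibroblasts and synovial cells by inflammatory signals. It lies on chromosome 17 (chr17:17843323-17855205, minus strand). Has1 was at 151, 256, 429 and 248 in control and at 227, 520, 213 and 845 in the libraries labelled knockout, means of 271 ± 116 and 451 ± 298 (SD, n = 4). Within the libraries labelled knockout, replicates 2 and 4 were above every control, and replicates 1 and 3 were inside the control range. The log2 difference of 0.59 had an SE of 0.45 and an interval of -0.41 to 1.59 (limma adjusted p = 0.365). Has3, a synthase described as making shorter chains, lies on chromosome 8 (chr8:106870242-106884566, plus strand). Has3 was at 56.2, 55.5, 61.7 and 60.2 in control and at 38.9, 63.3, 62.0 and 38.7 in the libraries labelled knockout. The control values were tightly grouped (58.4 ± 3.01), while those labelled knockout split into replicates 1 and 4 below the controls and replicates 2 and 3 just above them (50.7 ± 13.8). The log2 difference of Has3 was -0.24 (SE 0.22, interval -0.73 to 0.26, limma adjusted p = 0.462).

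Per kilobase of exon, Has1 supplied most of the synthase RNA in every library. Its share of the summed per-kilobase level of the 3 synthases was 82.2% ± 6.29 (SD, n = 4, 73.8 to 89.1) in control and 84.7% ± 6.19 (78.3 to 92.4) in the libraries labelled knockout. Has3 took 13.9% ± 4.30 and 9.12% ± 5.47, and Has2 took 3.87% ± 2.24 and 6.17% ± 1.79. The ranges of the groups overlapped for each of the 3 shares. So the called difference of Has2 lay in a transcript that made up 1.86 to 6.75% of synthase RNA in control and 4.62 to 8.75% in the other libraries.

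Of the degrading genes, Cemip rose and the hyaluronidases Hyal1 and Hyal2 were not called. Cemip, also known as KIAA1199 or HYBID, binds hyaluronan and is needed for its cleavage by skin and synovial fibroblasts. It lies on chromosome 7 (chr7:83932857-84086502, minus strand), downstream of the printed sequence with the TATA box. Cemip was at 104, 49.5, 178 and 21.9 in control (88.2 ± 68.6) and at 312, 344, 198 and 349 in the libraries labelled knockout (301 ± 70.3). The control libraries varied more, relative to their mean, than those labelled knockout, with coefficients of variation of 77.8% and 23.4%. Control replicate 3 and knockout replicate 3 came closest, at 178 and 198. Cemip rose by a log2 of 2.11 (SE 0.53, interval 0.92 to 3.30), a fold of 4.32 with an interval of 1.89 to 9.85 (limma adjusted p = 0.0211; exact permutation p = 0.0286). The ratio of group means was smaller, 3.41, and edgeR and DESeq2 gave log2 differences of 1.77 and 1.78. Without control replicate 4, the lowest control, limma gave 1.585 (adjusted p = 0.0328). Limma no longer called Cemip when control replicate 2 was left out (adjusted p = 0.0600), nor when knockout replicate 2 (0.0531) or 4 (0.0621) was. Beside it stand the fibroblast markers given above, of which the collagen genes Col1a1 and Col3a1 had log2 differences of 1.68 and 2.40 and Fap, a protease of activated fibroblasts, 1.58.

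Hyal1, the lysosomal hyaluronidase, and Hyal2, a hyaluronidase anchored to the cell surface that makes the first cuts, are neighbours on chromosome 9, at chr9:107576927-107581710 and chr9:107567945-107572779, both on the plus strand with 4147 bases between them. Hyal1 was at 57.3, 49.5, 22.4 and 53.7 in control and at 78.8, 37.6, 41.3 and 59.0 in the libraries labelled knockout. Hyal1 overlaps Hyal3 and Naa80 on the same strand, so its reads may be shared with them, and Hyal3 itself had 0 to 6 reads per library. The log2 difference of Hyal1 was 0.26 (SE 0.35, interval -0.51 to 1.04, limma adjusted p = 0.610), and it turned to -0.04 without control replicate 3, the lowest library. Hyal2 was at 255, 228, 194 and 237 in control and at 220, 289, 301 and 216 in the libraries labelled knockout. It was the steadiest degrading gene, with a log2 difference of 0.16 (SE 0.15, interval -0.17 to 0.49, limma adjusted p = 0.468), and the libraries labelled knockout fell on either side of the control mean of 229. Both intervals leave room for modest differences in either direction.

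The binding genes all had positive differences, and Cd44 and Stab1 were called. Cd44 is the main cell-surface receptor of hyaluronan on fibroblasts, leukocytes and chondrocytes, and lies on chromosome 2 (chr2:102811141-102901665, minus strand). Cd44 was at 588, 587, 1449 and 687 in control (828 ± 417) and at 1288, 1940, 1235 and 2306 in the libraries labelled knockout (1692 ± 520). Controls 1, 2 and 4 lay close together and below every library labelled knockout, and control replicate 3 lay above the lower pair of them. Cd44 rose by a log2 of 1.09 (SE 0.30, interval 0.41 to 1.77), a fold of 2.13 with an interval of 1.33 to 3.41 (limma adjusted p = 0.0293; exact permutation p = 0.0857). Without control replicate 3 the log2 difference was 1.40 (adjusted p = 0.00421). Leaving out any of the other controls, or knockout replicate 2 or 4, ended limma's call of Cd44, with adjusted p from 0.0666 to 0.0855. The same control library was also the highest control for Loxl2.

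Stab1 encodes stabilin-1, a scavenger receptor of tissue macrophages and sinusoidal endothelium related to the hyaluronan clearance receptor stabilin-2. It lies on chromosome 14 (chr14:31139013-31168641, minus strand). Stab1 was at 705, 455, 674 and 792 in control (657 ± 143) and at 744, 1045, 929 and 1238 in the libraries labelled knockout (989 ± 207). Control replicate 4 and knockout replicate 1 overlapped, and the other libraries were separated. Stab1 rose by a log2 of 0.59 (SE 0.19, interval 0.17 to 1.02), a fold of 1.51 (limma adjusted p = 0.0497; exact permutation p = 0.0571). The call stood at the threshold: it was lost with edgeR (adjusted p = 0.0509), with TMM scaling (0.0515), without the filter (0.0539), with a pseudocount of 0.1 (0.0504), and in 6 of 8 fits with a library left out, all but those without control replicate 4 or knockout replicate 1 (0.0659 to 0.134). Beside it, limma called 7 of 8 macrophage markers higher, among them C1qa, a complement gene of macrophages, at a log2 difference of 1.18. Of 5 tested markers of resident-type macrophages it called 1, Mrc1, the mannose receptor, at 1.45. Of 6 markers of blood endothelium limma, edgeR and DESeq2 called 0, with a median log2 difference of -0.14. The part of these cells in the Stab1 values was not tested.

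Tnfaip6 encodes TSG-6, a secreted protein that moves heavy chains from inter-alpha-inhibitor onto hyaluronan. It lies on chromosome 2 (chr2:52038009-52056686, plus strand), and its printed promoter held the AP-1 match. Tnfaip6 was at 26.0, 42.4, 119 and 30.7 in control and at 61.8, 162, 84.8 and 120 in the libraries labelled knockout. As with Cd44, control replicate 3 stood within the range of the libraries labelled knockout, and the other controls lay below it. The log2 difference was 1.14 (SE 0.46, interval 0.11 to 2.18), which did not pass (limma adjusted p = 0.0993; exact permutation p = 0.0857). Without control replicate 3, the highest control, it was 1.61 and passed (adjusted p = 0.0123), the 1 pass in 18 alternatives. Over all left-out libraries the difference ran down to 0.89 and the adjusted p up to 0.224.

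Lyve1 is a hyaluronan receptor of lymphatic vessels and of a subset of tissue macrophages, and lies on chromosome 7 (chr7:110850607-110863239, minus strand). Lyve1 was at 140, 84.8, 185 and 411 in control and at 256, 296, 611 and 355 in the libraries labelled knockout. Control replicate 4 exceeded 3 of the 4 libraries labelled knockout, and the other controls were below all of them. The log2 difference was 1.04 (SE 0.43, interval 0.07 to 2.01) and did not pass (limma adjusted p = 0.107; exact permutation p = 0.143). Without control replicate 4, the highest control, it was 1.46 and passed (adjusted p = 0.0282), the 1 pass in 18 alternatives. Over all left-out libraries the difference ran down to 0.70 and the adjusted p up to 0.252. Of 6 markers of lymphatic endothelium, 0 were called by limma, edgeR or DESeq2 and 1 had an unadjusted limma p under 0.05, with summed values of 376 to 603 in control and 502 to 770 in the libraries labelled knockout. The median log2 difference of these 6 markers was 0.37, with 4 higher and 2 lower. The highest was Pdpn, at 1.06 (limma adjusted p = 0.0832). The lymphatic transcription factor Prox1 was the lowest, at -0.16 (limma adjusted p = 0.763). Of 5 tested markers of resident-type macrophages limma called 1, Mrc1, edgeR 1 and DESeq2 2. All 5 had positive differences, with a median of 0.93. Summed over the 6 listed markers, with Timd4 below the filter included, values were 1190 to 3933 in control and 2596 to 6934 in the libraries labelled knockout.

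Because longer transcripts gather more reads, levels were compared between genes per kilobase of exon. In control, Cd44 was highest at 122 ± 61.5 normalised reads per kilobase (SD, n = 4), followed by Lyve1 at 70.2 ± 49.0, Hyal2 at 69.4 ± 7.73, Stab1 at 63.8 ± 13.9 and Has1 at 60.0 ± 25.6. Tnfaip6 followed at 31.8 ± 25.4, Hyal1 at 12.1 ± 4.20, Has3 at 9.16 ± 0.47, Cemip at 7.21 ± 5.61 and Has2 at 2.42 ± 0.78. Cd44 thus had the highest mean and Has2 the lowest, and the only neighbours whose libraries did not overlap in control were Tnfaip6 and Hyal1. These were all but tied at the edge, the lowest Tnfaip6 control being at 15.180 and the highest Hyal1 control at 15.177. In the libraries labelled knockout, Cd44 at 250 ± 76.7 and Lyve1 at 130 ± 54.7 were again first, and Has2 at 6.44 ± 2.62 was again last. Has1 stood at 99.9 ± 66.0, Stab1 at 96.1 ± 20.1, Hyal2 at 77.9 ± 13.6 and Tnfaip6 at 62.6 ± 25.4. Cemip at 24.6 ± 5.75 stood above Hyal1 at 14.3 ± 5.0 and Has3 at 7.95 ± 2.16, having been below both in control. There the neighbours without overlap were Tnfaip6 above Cemip and Hyal1 above Has3. The second pair was close, the lowest Hyal1 library being at 9.96 and the highest Has3 library at 9.92.

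**Figure D3:**
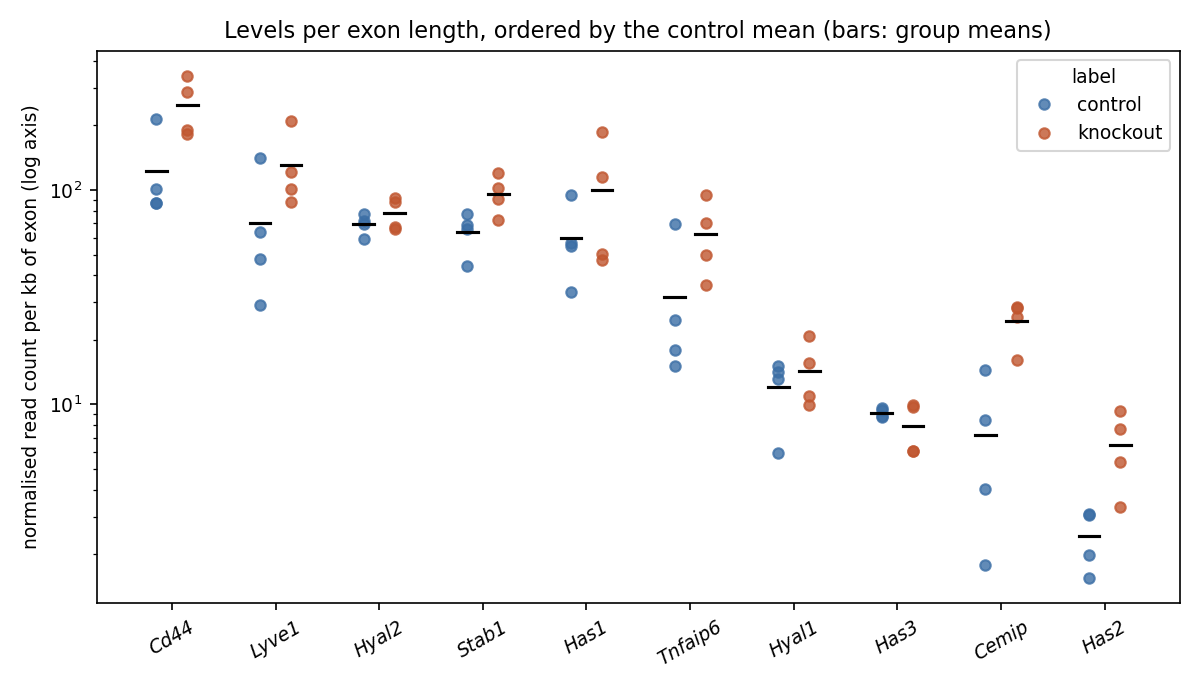
Normalised read count per kilobase of exon (log axis) of each gene, ordered by the control mean, with points for libraries and bars for group means. Cd44 leads and Has2 is last under both labels, and Cemip moves from 7.21 in control to 24.6 in the libraries labelled knockout.

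The libraries within a label differed in a way that several of the genes shared. Control replicate 3 was the highest control for 5 of the 10 genes (Has1, Has3, Cd44, Cemip and Tnfaip6) and the lowest for Hyal1 and Hyal2. Control replicate 2 was the lowest control for 4 genes (Has3, Cd44, Lyve1 and Stab1). Among the libraries labelled knockout, replicate 4 was the highest for 5 genes (Has1, Has2, Cd44, Cemip and Stab1). Knockout replicate 3 was the lowest for 4 genes (Has1, Has2, Cd44 and Cemip) and the highest for Hyal2 and Lyve1. Has1, Cd44 and Cemip thus had the same highest and lowest library within the knockout label and the same highest control, while Hyal1 and Hyal2 shared their highest and lowest controls with each other.

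**Figure D4:**
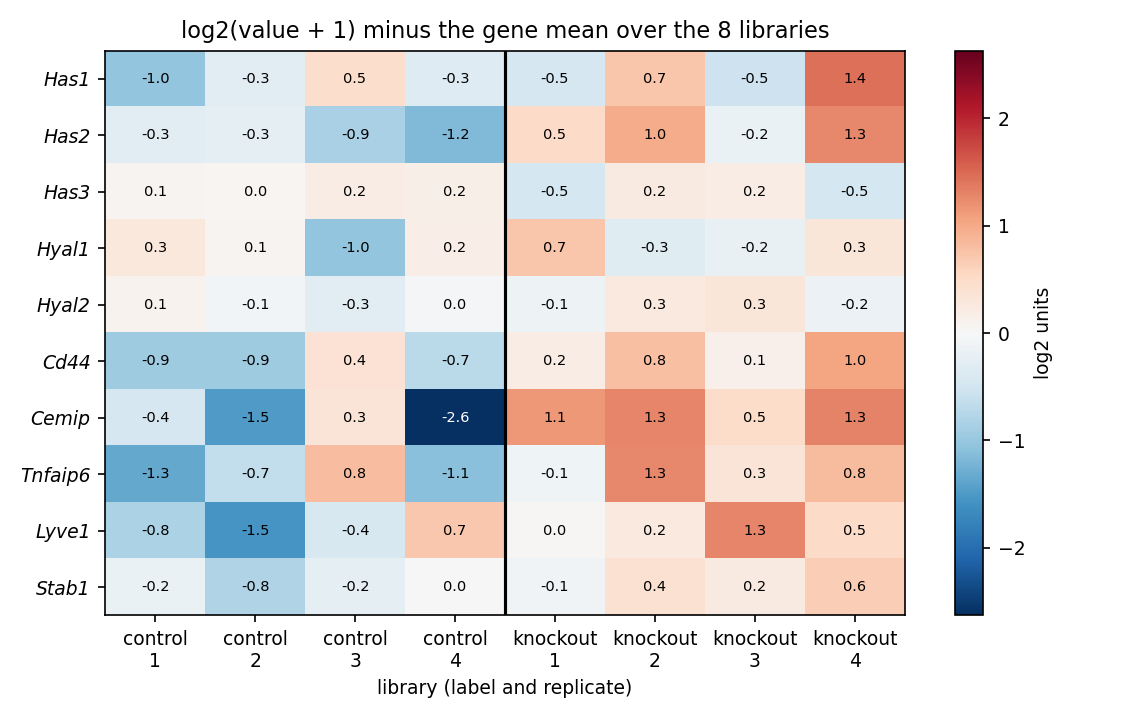
Each gene's log2(value + 1) minus its mean over the 8 libraries, in log2 units by colour, with genes as rows and libraries as columns and a line between the labels. Has2 in control replicate 4 lies 1.17 below its mean and in knockout replicate 4 it lies 1.26 above, while Hyal1 in control replicate 3 lies 1.04 below its own.

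A wider list of 38 genes that feed, cut, bind or assemble hyaluronan, also written with earlier results of these data known, was then examined. The table held 32 of them and 25 passed the filter, 19 with a positive and 6 with a negative difference and a median log2 difference of 0.78. Limma called 9 higher, against 11.6% of all genes. It called 0 lower, 3 having an unadjusted p under 0.05 in that direction, with 0 called lower by edgeR and 1, Stab2, by DESeq2. The groups did not overlap for 8 genes that were higher, against 11.7% of all genes. They also did not overlap for 1 that was lower, Habp4 (-0.26, limma adjusted p = 0.0614; exact permutation p = 0.0286). The share of all genes without overlap in that direction is not given here, so no reading of that count is made. Not in the table used here were Hyal4, Hyal5, Hyal6, Spam1, Itih1 and Ambp, and below the filter were Gnpnat1, Hyal3, Itih3, Itih4, Ncan, Hapln2 and Has2os.

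Of 3 tested genes for breakdown, limma called 3 higher, and in each the groups did not overlap (exact permutation p = 0.0286). Over all genes, 11.6% were called higher and 11.7% did not overlap in that direction. Hexa, the alpha subunit of lysosomal hexosaminidase, was at 1824, 1189, 1372 and 1285 in control and at 2824, 2018, 2189 and 2881 in the libraries labelled knockout, and rose by a log2 of 0.81 (SE 0.16, limma adjusted p = 0.00928). Gusb, the lysosomal beta-glucuronidase that removes glucuronic acid from the end of the chain, was at 420, 336, 411 and 337 and at 671, 548, 542 and 819, and rose by 0.76 (SE 0.15, limma adjusted p = 0.00905). These lysosomal enzymes also act on other substrates. In the same libraries macrophage markers were higher, with a median log2 difference of 1.23, and so were osteoclast markers, with a median of 2.92, among them Ctsk, the lysosomal collagenase cathepsin K, at 2.53, and Acp5, an acid phosphatase, at 2.92. Their part in the result was not tested. Cemip2, a transmembrane relative of Cemip listed under its older symbol Tmem2, was at 359, 409, 453 and 438 in control and at 771, 535, 502 and 738 in the libraries labelled knockout. It rose by 0.60 (SE 0.15, limma adjusted p = 0.0223), a call that ended when control replicate 1, control replicate 2, knockout replicate 1 or knockout replicate 4 was left out, with adjusted p from 0.0512 to 0.0683. Hexa and Gusb kept their calls under every alternative run, and Hyal1 and Hyal2 were called under none of them.

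Among 7 tested genes that supply sugar precursors, limma called 2 higher, against 11.6% of all genes. Both are on the N-acetylglucosamine side, to which most of the tested genes belong. Pgm3, the phosphomutase of that pathway, was at 44.3, 35.3, 49.5 and 38.3 in control and at 80.8, 69.3, 84.8 and 95.9 in the libraries labelled knockout, and rose by a log2 of 0.97 (SE 0.19, limma adjusted p = 0.00928). Uap1l1, a relative of the enzyme that makes UDP-N-acetylglucosamine, was at 250, 178, 246 and 256 and at 458, 378, 380 and 536, and rose by 0.91 (SE 0.16, limma adjusted p = 0.00630). In neither gene did the groups overlap (exact permutation p = 0.0286). Uap1 itself, Gfpt1 and Gfpt2, on the same side, were not called, and neither were Ugdh and Ugp2. Ugdh, which forms the glucuronic acid donor, had a log2 difference of 0.78 (limma adjusted p = 0.111). That of Ugp2 was -0.34 (limma adjusted p = 0.104), and that of Gfpt1 was -0.14 (0.358).

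Of 9 tested further binding genes, limma called 2 higher, against 11.6% of all genes. Layn, which encodes layilin, a membrane receptor of hyaluronan, was at 23.8, 10.1, 34.6 and 13.1 in control and at 59.8, 75.3, 42.4 and 77.5 in the libraries labelled knockout. Every library labelled knockout was above every control, and Layn rose by a log2 of 1.71 (SE 0.38, limma adjusted p = 0.0145; exact permutation p = 0.0286). Itih2, a heavy chain that TSG-6 transfers to hyaluronan, was at 28.1, 17.2, 33.6 and 16.4 and at 64.8, 32.5, 41.3 and 65.1. It rose by 1.07 (SE 0.33, limma adjusted p = 0.0432; exact permutation p = 0.0571) with 1 overlapping pair of libraries, and the call was lost in 6 of 8 fits that left out a library. Prg4, the lubricin of synovial fluid and cartilage surface, was singled out after its values were seen: it averaged 15739 ± 9440 in control and 29779 ± 9013 in the libraries labelled knockout, a log2 difference of 1.03 at the edge of the threshold (limma adjusted p = 0.0503), and passed in 7 of 18 alternatives, among them TMM scaling (adjusted p = 0.0496), quantile normalisation (0.0296) and the fits without control replicate 3 (0.00408) or knockout replicate 3 (0.0481). Stab2, the clearance receptor, had a log2 difference of -0.64 (limma adjusted p = 0.0726), opposite in sign to its relative Stab1.

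Of 6 tested genes of the matrix aggregate, all with positive differences, limma called 2 higher, against 11.6% of all genes. Both encode link proteins, which lock aggrecan or versican onto hyaluronan. Hapln1, the link protein of cartilage, was at 87.6, 135, 74.8 and 51.5 in control and at 225, 128, 249 and 224 in the libraries labelled knockout. Knockout replicate 2 lay below the highest control, and Hapln1 rose by a log2 of 1.28 (SE 0.30, limma adjusted p = 0.0165; exact permutation p = 0.0571), a call lost without knockout replicate 4 (adjusted p = 0.0513). Hapln3, a more widely expressed link protein, was at 17.3, 11.1, 17.8 and 19.7 and at 30.9, 23.9, 60.9 and 35.2. It rose by 1.09 (SE 0.34, limma adjusted p = 0.0415; exact permutation p = 0.0286), and the call was lost in 7 of 8 fits that left out a library. The lecticans they bind were not called: Acan, which encodes aggrecan and also drives the Cre, had a log2 difference of 0.84 (limma adjusted p = 0.326) and Vcan, which encodes versican, 1.27 (limma adjusted p = 0.0791). Control replicate 1 was the highest control for Acan, Bcan and Hapln4. Without it, limma called Acan (1.45, adjusted p = 0.0383), Bcan (2.75, 0.0320) and Hapln4 (1.87, 0.0316), each in only 1 of 18 alternatives. Bcan had 0 to 38 reads per library and Hapln4 had 3 to 42. Vcan was called in 2 of 18 alternatives, without control replicate 3 (1.64, adjusted p = 0.0282) or knockout replicate 3 (1.59, 0.0367).

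**Figure D5:**
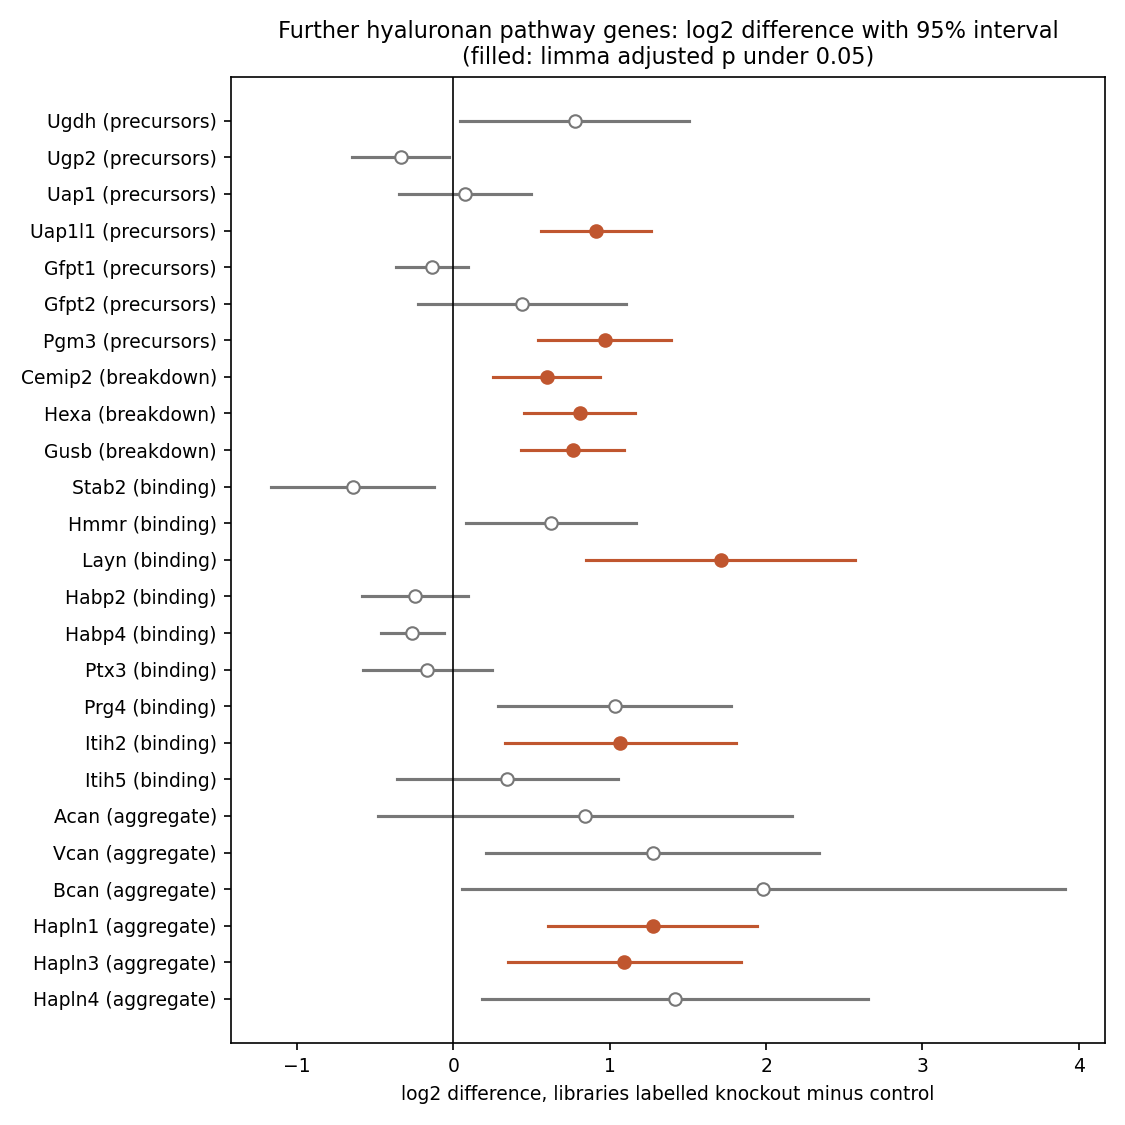
Log2 difference, libraries labelled knockout minus control, of the 25 tested genes of the wider list (points) with 95% intervals (lines) and their role in brackets, filled where limma's adjusted p was under 0.05. The 9 filled points all lie above 0, from 0.60 for Cemip2 to 1.71 for Layn, and the 6 genes below 0 are open.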

How the data were processed

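Poly-A RNA from 8 knee joint samples was read as 1 normalised signal per gene and library in the table the authors deposited. Per the submitters' processing notes, HISAT2, featureCounts and the build mm10 were used, and per the series' design text DESeq2 was used for normalisation and filtering. Versions, annotation and use of strand are not given in the sources used here. In every column 100% of the deposited values were whole reads times a constant (within 0.01 read). Of the value columns, 0 were unmapped. Within a label, 12 of 12 pairs of libraries differed beyond counting error (chi-square per degree of freedom 25.0 to 66.9), so each counted once.

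Genes that reached 10 in 4 or more libraries were tested with limma 3.58.1 (R 4.3.3; lmFit, eBayes with an intensity trend) on log2(value + 1), with Benjamini-Hochberg adjustment over all 14949 genes. Fold changes on that scale understate the change of low genes. Single genes were also compared by the exact two-sided permutation test over 70 assignments, smallest p 0.0286. edgeR 4.0.16 and DESeq2 1.42.0 on recovered reads, other scalings, pseudocounts and left-out libraries were alternatives, and the code was tested on simulated data. Members, lists and tests were chosen with earlier results of these data known. Named were all 10 members and each called gene of the wider list. From the wider list as written in the design, 1 gene was left out of every count and is not reported here. Others were chosen after their values were seen. Coordinates and exon lengths come from GENCODE M21 (mm10), which matched 20520 names (99.2%), and 12 names occurred more than once. The labels give no batch or date.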

Additional observations from a re-analysis of the deposited data

Results flagged for a closer look

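In 3 of 40 groups of 4 libraries examined, 1 library stood apart from the rest by Dixon's criterion (gap to the nearest library over the range of the group), which chance alone flags in about 1 in 20 groups. Cd44 was at 1449 in control replicate 3, where the next control was at 687. Loxl2 was at 1135 in the same library, the next control being at 349. Uap1l1 was at 178 in control replicate 2, where the next lowest control was at 246.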

How the results depend on the processing

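Of the 10 hyaluronan genes, 4 were called higher, 2 without the filter and 0 to 3 when a library was left out. With the labels' numbers as a replicate block, 1 (Cemip) was called, 5 genes of the wider list instead of 9, and 2018 of all genes instead of 3461, and Loxl2 was at 1.44 (adjusted p = 0.0513). Those numbers are not said to mark a litter or batch: same-numbered libraries correlated at -0.233 to 0.213 in their deviations, and 1 of 4 controls was closest to its own number. Leaving out a library gave 5 to 10 higher calls and 0 to 1 lower calls in the wider list, 1751 (without knockout replicate 4) to 3841 calls over all genes, 1887 and 2194 of them without control replicate 2 and 4, and 1.24 to 1.91 for Loxl2. Loxl2 lost its call with edgeR (1.23, adjusted p = 0.0669) and DESeq2 (1.23, 0.0659). Stab2 was the 1 gene of the wider list called lower with quantile normalisation (-0.81), with DESeq2 (-0.69) and without control replicate 1 (-0.80). Hyal1 turned to -0.0091 with quantile normalisation and ranged from -0.0404 to 0.41 over left-out libraries. Total-read scaling on the remaining genes, added after the data were seen, called 3501 genes, 77.9% of them higher instead of 50.04%, and 4 of the 10. Uap1l1, Pgm3, Hexa, Gusb and Layn kept their calls in 18 of 18 alternatives. The causes were not tested. Has2 rests on 6 to 45 reads per library, which limits its precision.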
